A study of Mus musculus with 12 samples.

Results

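The comparison of TMG_E2 with Ctrl asks what Thiamet-G and estradiol, given together, changed in G1E-ER4 cells relative to cells given neither. It was made up of the libraries titled TMG_E2_Rep1 to TMG_E2_Rep3 and Ctrl_Rep1 to Ctrl_Rep3, 6 of the 12 RNA sequencing libraries of the series. Genes entered the test when they exceeded 10 CPM, the counts scaled to library size, in at least 2 of these 6 libraries, which held for 8195 of the 32698 genes in the files. G1E-ER4 is a mouse erythroid progenitor line that carries GATA-1 fused to a part of the estrogen receptor. Adding β-estradiol (E2) makes that GATA-1 active. TMG_E2 cells received 10 µM Thiamet-G (TMG) and 1 µM E2 for 30 h. E2 cells received 1 µM E2 alone and TMG cells 10 µM TMG alone for the same time, while Ctrl cells received neither. All groups grew at passages 35 to 40 in medium with erythropoietin at 2.5 U/ml, stem cell factor at 50 ng/ml and puromycin, and all carry the fusion. A single line was used and there were no cells that lack the fusion and received E2, so that an effect of E2 through the fusion and another effect of E2 cannot be told apart. The labels do not say whether the 3 replicates of a group came from separate cultures. The p-values below therefore reflect library-to-library spread, and this spread can be technical.

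GATA-1 is the factor that drives red cell differentiation. It activates globin, heme and membrane genes, and it replaces GATA-2 at the Gata2 gene, which then falls silent, a step called the GATA switch. O-GlcNAc is a sugar that the enzyme OGT adds to serines and threonines of nuclear and cytosolic proteins and the enzyme OGA removes. Thiamet-G blocks OGA, so that the sugar stays on proteins. The hexosamine pathway, which begins with the enzyme GFPT1, makes the sugar donor.

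The libraries held 17589400 to 23178700 expected counts, and 3 counts corresponded to 0.133 to 0.180 CPM. On the first principal component, which held 95.6% of the variance, TMG_E2 libraries lay at 44.7 to 46.1, E2 libraries at 41.0 to 43.1, TMG libraries at -42.4 to -41.4 and Ctrl libraries at -46.2 to -45.1. TMG_E2 replicates spread more than the others, with a median SD of 0.0787 (log2 CPM) per gene, against 0.0468 in Ctrl. The labels call the cell type embryonic stem cell. Of 9 embryonic stem cell markers, Pou5f1, Sox2, Zfp42, Dppa5a, Tdgf1 and Lin28a were listed at 0 in all 6 libraries, and Dppa4 alone passed the filter. All 10 markers that define erythroid cells were measured, and they summed to 9465 to 10021 CPM in TMG_E2 libraries and 2018 to 2038 CPM in Ctrl libraries.

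Both compounds together were accompanied by a change in most of the genes tested. Of 8195 genes, 6915 (84.4%) differed between TMG_E2 and Ctrl at an adjusted p under 0.05 in edgeR's quasi-likelihood test, and are named called below. Of these, 3468 (42.3%) were higher and 3447 (42.1%) lower in TMG_E2, and the median fold among the called genes was 1.46. The groups did not overlap in 6854 genes (83.6%). Larger changes were fewer: 795 genes (9.7%) rose and 814 (9.93%) fell by 2-fold or more, 209 (2.55%) rose and 178 (2.17%) fell by 4-fold or more, and 47 (0.574%) rose and 30 (0.366%) fell by 16-fold or more. By 100-fold or more, 11 genes (0.134%) rose and 5 (0.061%) fell. Genes that rose by 2-fold or more held 18.5% of the counts in TMG_E2 and 4.84% in Ctrl, and those that fell by as much held 3.0% in TMG_E2 and 9.05% in Ctrl. Among the genes tested, 257 passed the filter only through TMG_E2 libraries and 405 only through Ctrl libraries, and these had to differ. RNA of bulk samples was measured, so that a change in the share of cells and a change in RNA per cell cannot be told apart.

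**Figure D1:**
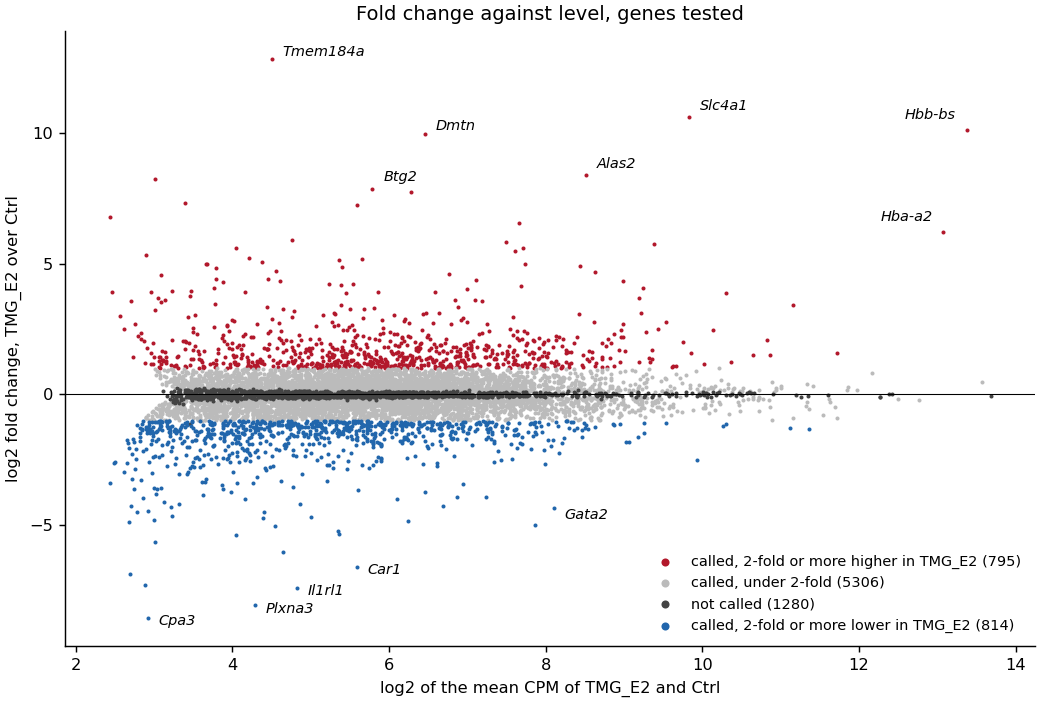
Fold change of TMG_E2 over Ctrl (log2, vertical axis) against the log2 mean CPM of both groups (horizontal axis), 1 point per gene tested. Red points are the 795 genes that rose by 2-fold or more and blue points the 814 that fell by 2-fold or more; Hbb-bs (10.13) and Slc4a1 (10.60) lie near the top, and Cpa3 (-8.54) at the bottom.

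Gata1 and Klf1 rose and Gata2 fell. Gata1 (chromosome X, 7959260 to 7976663) had 446, 480.0 and 461 CPM in the TMG_E2 libraries, against 130.2, 124 and 126 CPM in the Ctrl libraries. The groups did not overlap, and the gene rose (log2 1.87 ± 0.04, adjusted p = 2.79e-17). Reads of the fusion transgene may be among those counted here, so that a rise of the gene itself and of the transgene cannot be told apart. Gata2 (chromosome 6, 88193891 to 88207032), the progenitor factor that GATA-1 is known to replace, had 23.4, 26.2 and 27.3 CPM in the TMG_E2 libraries, against 554, 489 and 528 CPM in the Ctrl libraries. All 3 TMG_E2 libraries lay below every Ctrl library, and the gene fell (log2 -4.36 ± 0.07, adjusted p = 1.46e-19). Klf1 (chromosome 8, 84901982 to 84905291), a factor that GATA-1 activates and that itself activates beta globin, had 249, 274 and 285 CPM in the TMG_E2 libraries, against 95.6, 91.2 and 92.5 CPM in the Ctrl libraries, and rose (log2 1.53 ± 0.05, adjusted p = 1.32e-14).

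Of 22 tested genes of the erythroid factor list, 15 rose and 6 fell, with a median log2 fold change of 0.57. Over all genes tested 42.3% were higher and 42.1% lower, and the median was -0.0047. Bach1, a repressor that heme inactivates, rose the most of the list (157, 172 and 151 CPM in the TMG_E2 libraries, against 18.9, 17.9 and 18.5 CPM in the Ctrl libraries; log2 3.12 ± 0.05). Mafk, a small Maf protein that pairs with BACH1 or NFE2, rose (log2 2.13 ± 0.04), and so did Nfe2 (log2 1.20 ± 0.04). Klf13 (log2 1.85 ± 0.05), Lmo2, a bridging protein of the TAL1 complex (log2 1.76 ± 0.04), Foxo3 (log2 1.65 ± 0.08) and Zfpm1, the GATA-1 cofactor FOG-1 (log2 1.44 ± 0.09), rose as well. Tal1 and Ldb1, which form a complex with LMO2, rose less (log2 0.25 ± 0.04 and log2 0.26 ± 0.05). Lyl1, a relative of Tal1, fell to 25.4 ± 2.22 CPM in TMG_E2, against 170.1 ± 6.56 CPM in Ctrl (log2 -2.75 ± 0.06). E2f4 (log2 -1.09 ± 0.05), Tcf3 (log2 -1.07 ± 0.07) and E2f2 (log2 -0.35 ± 0.07) also fell. Gfi1b and Bcl11a, the repressor of fetal globin in humans, changed little though past the threshold (log2 -0.14 ± 0.04 and log2 -0.16 ± 0.04). Ikzf1 did not pass the test, at 279.9 ± 8.85 CPM in TMG_E2 and 278 ± 3.93 CPM in Ctrl.

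Promoters of 3 genes that rose and 2 that fell are printed because GATA-1 binds the letters GATA. They were picked after the results were seen, and each holds at least 1 match, so they say nothing of how common a match is. The sequences are those of RefSeq on GRCm38.p6, 250 bases each, up to the base before the transcription start, written 5′ to 3′ on the strand of the gene. Capitals mark matches on either strand to AGATAA or TGATAA, or with G as the last letter to AGATAG or TGATAG. Alas2, Hbb-bs and Klf1 rose, and Ms4a2 and Cpa3 fell.
Alas2, chrX:150547167-150547416, plus strand: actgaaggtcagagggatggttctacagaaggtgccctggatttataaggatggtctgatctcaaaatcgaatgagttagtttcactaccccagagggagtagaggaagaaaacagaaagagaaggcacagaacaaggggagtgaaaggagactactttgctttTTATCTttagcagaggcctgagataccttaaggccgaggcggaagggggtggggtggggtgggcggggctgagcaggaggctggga
Hbb-bs, chr7:103827929-103828178, minus strand: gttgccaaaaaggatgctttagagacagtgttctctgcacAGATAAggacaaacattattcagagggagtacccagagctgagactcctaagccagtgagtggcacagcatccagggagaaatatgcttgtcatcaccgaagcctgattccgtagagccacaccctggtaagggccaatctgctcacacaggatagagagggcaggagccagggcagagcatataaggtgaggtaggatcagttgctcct
Klf1, chr8:84901732-84901981, plus strand: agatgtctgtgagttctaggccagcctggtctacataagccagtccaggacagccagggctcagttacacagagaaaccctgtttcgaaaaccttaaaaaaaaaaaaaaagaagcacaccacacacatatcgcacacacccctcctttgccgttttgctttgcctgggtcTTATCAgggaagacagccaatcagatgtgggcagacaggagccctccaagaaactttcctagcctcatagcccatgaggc
Ms4a2, chr19:11623720-11623969, minus strand: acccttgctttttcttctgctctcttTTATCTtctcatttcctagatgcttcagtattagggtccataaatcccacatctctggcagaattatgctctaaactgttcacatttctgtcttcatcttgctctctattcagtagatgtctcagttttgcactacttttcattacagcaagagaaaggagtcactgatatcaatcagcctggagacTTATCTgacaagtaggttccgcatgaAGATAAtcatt
Cpa3, chr3:20242182-20242431, minus strand: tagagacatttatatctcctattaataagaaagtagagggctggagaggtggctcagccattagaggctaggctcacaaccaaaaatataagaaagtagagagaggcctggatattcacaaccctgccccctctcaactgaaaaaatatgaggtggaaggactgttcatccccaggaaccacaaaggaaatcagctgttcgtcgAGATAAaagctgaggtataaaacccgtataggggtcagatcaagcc
The match of Alas2 begins 86 bases before the start, that of Hbb-bs 210 bases and that of Klf1 80 bases before it. Ms4a2, which fell, holds 3 matches, at 224, 37 and 11 bases, and Cpa3 holds 1 at 46 bases. Such a match lies in 26.5% of all promoters of this length in the table and in 16.2% of those of tested genes. It lies in 27.2% of the promoters of genes that rose by 4-fold or more and in 19.9% of those that fell by as much, against 15.6% of those of genes not called. The letters CCNCNCCC on either strand, which KLF factors can bind, lie in 76.7% of promoters of genes that rose by 4-fold or more, 66.8% of those that fell by as much and 59.2% of those of genes not called. Promoters were matched for 6602 of the 8195 genes, and no test was made of these shares. A match is a description of the letters and not a binding site.

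Globin genes had the highest median fold change of the lists described here, 6.23 on the log2 scale. Hbb-bs (chromosome 7, 103826523 to 103827928), an adult beta globin gene, had 20609, 21210.0 and 21869 CPM in the TMG_E2 libraries, against 21.2, 17.8 and 18 CPM in the Ctrl libraries. No library of one group came near the other, and the log2 fold change was 10.13 ± 0.10 (adjusted p = 7.28e-22). Hba-a2 (chromosome 11, 32296492 to 32297310), an adult alpha globin gene, had 14267, 17851 and 18970.0 CPM in the TMG_E2 libraries, against 235, 213 and 232 CPM in the Ctrl libraries, also without overlap (log2 6.23 ± 0.10). Copies that are nearly identical to these genes can share reads with them, so their split between copies is uncertain. Hbb-b2, the minor adult beta globin gene, had 81.6 ± 10.2 CPM in TMG_E2 and 2.76 ± 0.594 CPM in Ctrl (log2 4.89 ± 0.16). Hbb-bh1, an embryonic beta-like globin gene, had 21.9, 20.2 and 20.9 CPM in the TMG_E2 libraries, against 0.0472, 0.189 and 0.133 CPM in the Ctrl libraries (log2 7.34 ± 0.21); 0.133 CPM is the level of 3 counts at the highest depth, so the Ctrl values rest on a few counts. Hbq1b, a theta globin gene, had 26.6 ± 2.37 CPM in TMG_E2 and 1.23 ± 0.129 CPM in Ctrl (log2 4.42 ± 0.12). These 5 are the tested ones of 9 globin genes in the files, and 3 of them passed the filter only through TMG_E2 libraries.

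In TPM, a level scaled for gene length and depth, globin genes made up 11.3%, 12.4% and 12.2% of the transcripts in the TMG_E2 libraries. In the Ctrl libraries they made up 0.105%, 0.0933% and 0.102%. The groups averaged 11.98% ± 0.601 in TMG_E2 and 0.10% ± 0.00606 in Ctrl (SD, n = 3 each). A two-sided exact permutation test over the 6 libraries gave p = 0.1, the smallest that 3 against 3 can give. Of the expected counts, which long genes raise, globin genes held 3.65% in TMG_E2 and 0.0258% in Ctrl. Hbb-bs and Hba-a2 were the most abundant transcripts of TMG_E2 cells, at 61172 and 58235 TPM, and were at 64.8 and 922 TPM in Ctrl cells. Eef1a1, a translation factor among the most abundant transcripts of both groups, stood at 10642 TPM in TMG_E2 and 12980 TPM in Ctrl, and its CPM did not pass the test (log2 -0.05 ± 0.05). It was called lower in TMG_E2 when scaled by library size alone (log2 -0.17, edgeR adjusted p = 0.000632) and without TMG_E2_Rep3 (log2 -0.11, edgeR adjusted p = 0.0105).

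**Figure D2:**
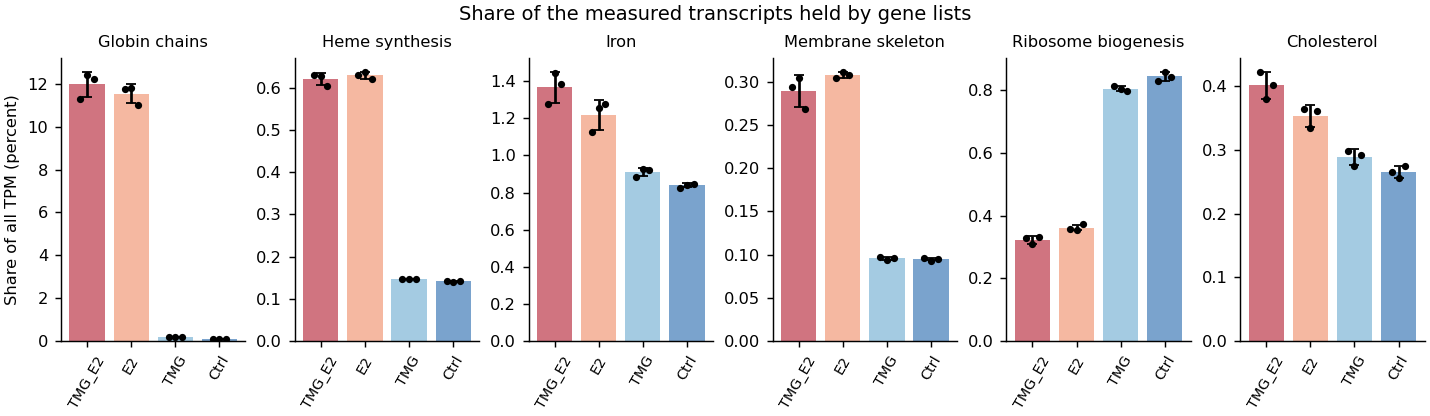
Share of all TPM (percent, vertical axis) held by the genes of 6 lists in TMG_E2, E2, TMG and Ctrl; bars are means of 3 libraries, whiskers SD and points single libraries. Globin genes hold 11.98% in TMG_E2 and 0.10% in Ctrl, while genes of ribosome biogenesis hold 0.323% in TMG_E2 and 0.845% in Ctrl.

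Genes of heme synthesis rose along with the globins. Heme is built from glycine and succinyl-CoA in steps that begin and end in the mitochondrion. Alas2 (chromosome X, 150547417 to 150570622), which makes the first committed step in red cells, had 718, 719.6 and 747 CPM in the TMG_E2 libraries, against 1.70, 2.26 and 2.53 CPM in the Ctrl libraries. It rose by 8.38 ± 0.07 on the log2 scale (adjusted p = 3.25e-22) and passed the filter only through TMG_E2 libraries. Alas1, the form of that enzyme used in other tissues, fell, with 10.4, 11.6 and 12.6 CPM in the TMG_E2 libraries, against 18.1, 18.3 and 20.2 CPM in the Ctrl libraries (log2 -0.72 ± 0.08). In pathway order, Alad stood at 1084 ± 63.9 CPM in TMG_E2 and 83.7 ± 2.49 CPM in Ctrl (log2 3.69 ± 0.05). Uros (log2 2.34 ± 0.05), Urod (log2 1.42 ± 0.04), Cpox (log2 1.5 ± 0.03) and Ppox (log2 1.63 ± 0.05) rose too. Abcb10, a mitochondrial transporter needed for heme synthesis, had 1151, 1192 and 1078 CPM in the TMG_E2 libraries, against 70.1, 64.7 and 65.9 CPM in the Ctrl libraries (log2 4.09 ± 0.05). Tmem14c, which carries a porphyrin precursor into the mitochondrion, had 1069 ± 45.1 CPM in TMG_E2 and 125 ± 2.57 CPM in Ctrl (log2 3.10 ± 0.04). Slc25a38, the glycine carrier, Abcb6, a porphyrin transporter, and Fam210b rose by 1.99 ± 0.05, 2.14 ± 0.04 and 1.39 ± 0.06 on the log2 scale. Clpx, a mitochondrial unfoldase that acts on the ALAS enzymes, changed least (log2 0.33 ± 0.04). Of 15 tested genes, 14 rose and 1 fell, with a median log2 fold change of 1.99, against 42.3% higher and 42.1% lower of all genes. The groups overlapped in none of the 15, and in 83.6% of all genes they did not overlap either. The list held 0.621% ± 0.0143 of TPM in TMG_E2 and 0.142% ± 0.00131 in Ctrl.

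Of 6 tested genes of heme breakdown and transport, 4 rose and 2 fell, against 42.3% higher and 42.1% lower of all genes. Blvrb, a biliverdin reductase, had 681 ± 75 CPM in TMG_E2 and 190.1 ± 1.42 CPM in Ctrl (log2 1.84 ± 0.06). Abcg2, which exports porphyrins, rose (log2 1.06 ± 0.04), while Slc48a1, which moves heme out of lysosomes, fell (log2 -1.10 ± 0.04).

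Iron genes moved in both directions. Slc25a37 (chromosome 14, 69241848 to 69285544), mitoferrin-1, which brings iron into the mitochondrion of red cell precursors, had 965, 1005 and 939 CPM in the TMG_E2 libraries, against 47.0, 48.7 and 47.3 CPM in the Ctrl libraries, and rose (log2 4.35 ± 0.04, adjusted p = 7.28e-22). Tfrc, the transferrin receptor through which these cells take up iron, had 2755 ± 82.0 CPM in TMG_E2 and 972 ± 11.9 CPM in Ctrl (log2 1.5 ± 0.04). Ncoa4, the receptor that sends ferritin to the lysosome, rose (log2 1.97 ± 0.04). Tfr2 (chromosome 5, 137569822 to 137588081), a second transferrin receptor that senses iron, had 11.2, 8.08 and 11.4 CPM in the TMG_E2 libraries, against 199.7, 194 and 198 CPM in the Ctrl libraries, and fell (log2 -4.27 ± 0.08, adjusted p = 5.41e-18). Slc11a2, the endosomal iron exporter DMT1, fell less (log2 -0.77 ± 0.05). The ferritin genes, picked after their values were seen, differed in direction: Ftl1 rose (log2 1.59) and Fth1 fell (log2 -0.64). Of 19 tested iron genes 11 rose and 7 fell, with a median log2 fold change of 0.30. Over all genes tested 42.3% were higher and 42.1% lower.

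Membrane and skeleton genes of the red cell rose almost throughout. Slc4a1 (chromosome 11, 102348820 to 102365281), the band 3 anion exchanger that anchors the skeleton, had 1723, 1991 and 1763 CPM in the TMG_E2 libraries, against 1.13, 1.32 and 1.07 CPM in the Ctrl libraries (log2 10.60 ± 0.10, adjusted p = 3.25e-22). Dmtn (chromosome 14, 70602184 to 70636048), dematin, which bundles actin at the skeleton's junctions, had 157, 179.8 and 189 CPM in the TMG_E2 libraries, against 0.236, 0.0943 and 0.178 CPM in the Ctrl libraries (log2 9.96 ± 0.14). Dmtn was near the limit of detection in Ctrl libraries, where it averaged 0.169 ± 0.0712 CPM. Sptb, beta spectrin, stood at 4176 ± 263 CPM in TMG_E2, against 394 ± 1.67 CPM in Ctrl (log2 3.41 ± 0.05). Ank1, ankyrin, which ties spectrin to band 3, rose (log2 2.69 ± 0.05). Tpm3, a tropomyosin, fell (log2 -0.63 ± 0.04). Of 14 tested genes 13 rose and 1 fell (median log2 2.15), against 42.3% higher and 42.1% lower of all genes. Of the 14, 3 passed the filter only through TMG_E2 libraries, Slc4a1 and Dmtn among them, so that these had to differ.

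Of 16 tested surface genes, 13 rose and 2 fell (median log2 1.55), against 42.3% higher and 42.1% lower of all genes. Of the 16, 2 passed the filter only through TMG_E2 libraries, so that these had to differ. Kel, the Kell blood group protein, had 269 ± 15.7 CPM in TMG_E2 and 22.3 ± 0.423 CPM in Ctrl (log2 3.59 ± 0.06), and the tetraspanin gene Tspan33 rose (log2 2.95 ± 0.04). Cd44, an adhesion receptor of progenitors, fell to 25.6 ± 1.13 CPM in TMG_E2, against 89.9 ± 2.23 CPM in Ctrl (log2 -1.81 ± 0.05). Slc29a1, a nucleoside transporter, fell as well (log2 -1.49 ± 0.05). The carbonic anhydrases, which interconvert carbon dioxide and bicarbonate, split. Car2 had 1858 ± 62.4 CPM in TMG_E2 and 777 ± 37.3 CPM in Ctrl (log2 1.26 ± 0.04), while Car1 (chromosome 3, 14766214 to 14808365) had 0.808, 0.910 and 1.32 CPM in the TMG_E2 libraries, against 98.2, 91.4 and 96.6 CPM in the Ctrl libraries, a fall of 6.58 ± 0.10 on the log2 scale (adjusted p = 1.01e-19). Car1 passed the filter only through Ctrl libraries, so that it had to differ.

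**Figure D3:**
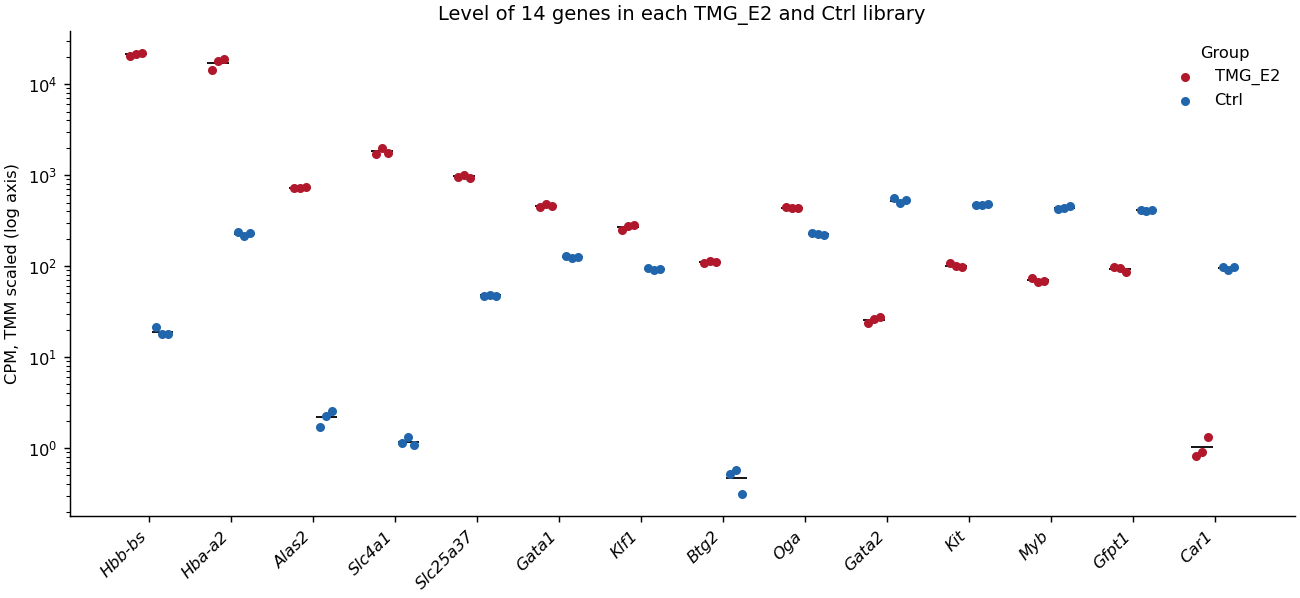
Level of 14 genes (CPM, log axis) in each TMG_E2 library (red) and each Ctrl library (blue), with the mean of each group as a line. In every gene shown the 3 TMG_E2 libraries lie on one side of the 3 Ctrl libraries, as in 83.6% of all genes tested. Gata2, Kit, Myb, Gfpt1 and Car1 are the ones lower in TMG_E2.

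Progenitor genes were mostly lower. Kit (chromosome 5, 75574987 to 75656722), the receptor of stem cell factor, had 107, 99.2 and 96.7 CPM in the TMG_E2 libraries, against 467, 467 and 485 CPM in the Ctrl libraries, and fell (log2 -2.23 ± 0.04, adjusted p = 3.24e-18). Myb (chromosome 10, 21124930 to 21160984), a factor of immature blood cells, had 73.4, 66.3 and 69.3 CPM in the TMG_E2 libraries, against 426, 433 and 459.9 CPM in the Ctrl libraries, and fell (log2 -2.66 ± 0.05). Myc fell to 77.8 ± 2.53 CPM in TMG_E2, against 318 ± 41.1 CPM in Ctrl (log2 -2.03 ± 0.08). Hhex (log2 -3.04 ± 0.08), Etv6 (log2 -0.97 ± 0.05) and Lmo4 (log2 -0.31 ± 0.07) fell too. Hhex passed the filter only through Ctrl libraries, so that it had to differ. Runx1 (log2 0.89 ± 0.04) and Spi1, which encodes PU.1 (log2 0.35 ± 0.07), were higher in TMG_E2. In all, 7 of 9 tested progenitor genes fell and 2 rose, with a median log2 fold change of -2.03. Over all genes tested 42.1% were lower and 42.3% higher.

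Genes at the lowest end included 3 of mast cells. Il1rl1 (chromosome 1, 40404864 to 40465418), the receptor of interleukin-33, had 0.404, 0.161 and 0.420 CPM in the TMG_E2 libraries, against 55.3, 55.0 and 59.3 CPM in the Ctrl libraries (log2 -7.40 ± 0.17). Ms4a2, the beta chain of the IgE receptor, had 0.0449, 0.107 and 0.120 CPM in the TMG_E2 libraries, against 11.7, 12.9 and 19.5 CPM in the Ctrl libraries (log2 -7.31 ± 0.42). Cpa3, a mast cell carboxypeptidase, had 0, 0.0535 and 0.0601 CPM in the TMG_E2 libraries, against 9.58, 14.4 and 21.5 CPM in the Ctrl libraries (log2 -8.54 ± 0.62). Those 3 are the tested ones of 10 mast cell markers, and they passed the filter only through Ctrl libraries. The 10 markers summed to 0.428 to 0.661 CPM in TMG_E2 libraries and 77.4 to 101 CPM in Ctrl libraries, and 5 of them in TMG_E2 and 4 in Ctrl were at 0 in all 3 libraries. Of other blood cells, 10 megakaryocyte markers summed to 46.3 to 52.5 CPM in TMG_E2 and 82.8 to 94.9 CPM in Ctrl. The difference lay in Nbeal2, at 25.5 CPM in TMG_E2 and 78.1 CPM in Ctrl, while Gp9 (7.78 CPM in TMG_E2 and 0.808 CPM in Ctrl) and Itgb3 (7.05 CPM in TMG_E2 and 0.708 CPM in Ctrl) lay the other way. The 12 markers of granulocytes and monocytes summed to 5.88 to 7.92 CPM in TMG_E2 and 19.0 to 25 CPM in Ctrl. The difference lay in Coro1a, at 2.96 CPM in TMG_E2 and 19.4 CPM in Ctrl, while Cebpe lay higher in TMG_E2, at 1.24 CPM against 0.171 CPM in Ctrl. Of these 5 genes only Nbeal2 and Coro1a passed the filter and were tested. Lymphoid markers stayed under 1 CPM in sum, at up to 0.214 CPM in TMG_E2 and 0.896 CPM in Ctrl. Whether other cells took part in these values was not tested.

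The other genes with the largest falls were Plxna3, a semaphorin receptor, Tespa1, Vim, the intermediate filament vimentin, Ces2g, Sall2, Fgf15, Scd1, a fatty acid desaturase, and Plp2. Plxna3 had 0.179, 0.0535 and 0.180 CPM in the TMG_E2 libraries, against 38.0, 38.7 and 40.3 CPM in the Ctrl libraries (log2 -8.07 ± 0.14). Vim had 0.628, 0.589 and 1.08 CPM in the TMG_E2 libraries, against 44.3, 46.8 and 57.2 CPM in the Ctrl libraries (log2 -6.04 ± 0.22), and Scd1 had 2.65, 1.44 and 2.10 CPM in the TMG_E2 libraries, against 93.6, 68.3 and 75.8 CPM in the Ctrl libraries (log2 -5.24 ± 0.22). These 3 were named from genes whose groups do not overlap, which held for 83.6% of all genes tested. They passed the filter only through Ctrl libraries. At the other end, beside the genes already given, stood Slc38a5, an amino acid transporter, Btg2, Btn1a1, Rragd, a GTPase that relays amino acid supply to mTORC1, Kalrn and Csf2rb2, a beta chain of the interleukin-3 receptor. Csf2rb2 had 432, 344 and 426 CPM in the TMG_E2 libraries, against 2.88, 3.58 and 6.05 CPM in the Ctrl libraries (log2 6.57 ± 0.17). Rragd had 96.2 ± 5.95 CPM in TMG_E2 and 0.635 ± 0.126 CPM in Ctrl (log2 7.23 ± 0.12), and Btn1a1 155 ± 1.19 CPM in TMG_E2 and 0.708 ± 0.0823 CPM in Ctrl (log2 7.76 ± 0.07). Csf2rb2, Rragd and Btn1a1 passed the filter only through TMG_E2 libraries.

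Tmem184a (chromosome 5, 139804951 to 139819969) had no counts in Ctrl libraries. It had 1021, 833 and 763 counts in the TMG_E2 libraries and 0 in each Ctrl library, and was at least 905.6-fold higher in TMG_E2 with Ctrl set to 3 counts in all. Matn1 had 131 counts over the TMG_E2 libraries and 0 in Ctrl, at least 45.3-fold higher. In the other direction, Ppp1r17 had 0 counts in TMG_E2 and 163, 152 and 158 in the Ctrl libraries, at least 152-fold lower in TMG_E2. AU042671 had 168 counts in TMG_E2_Rep3 and 0 in the other 5 libraries, so it rests on a single library. Of the 32698 genes in the files, 1031 had 0 counts in all 3 TMG_E2 libraries but had counts in Ctrl. The reverse held for 754 genes. No floor was set on the counts of the other group. Of the 1031 genes 0 passed the filter, and of the 754 genes 1 did.

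Enzymes of O-GlcNAc cycling and of the hexosamine pathway were read next, since TMG acts on this cycle. Mgea5 (chromosome 19, 45750255 to 45783644), the gene of OGA, had 444, 431 and 432 CPM in the TMG_E2 libraries, against 229, 224 and 219 CPM in the Ctrl libraries, and rose (log2 0.96 ± 0.04, adjusted p = 2.63e-14). Ogt (chromosome X, 101640011 to 101684351) had 543, 528 and 501 CPM in the TMG_E2 libraries, against 338, 357 and 324 CPM in the Ctrl libraries, and rose less (log2 0.63 ± 0.04, adjusted p = 1.87e-10). Gfpt1 (chromosome 6, 87042846 to 87092207), the entry enzyme of the hexosamine pathway, had 97.4, 95.3 and 87.1 CPM in the TMG_E2 libraries, against 413, 407 and 418 CPM in the Ctrl libraries, and fell (log2 -2.14 ± 0.04, adjusted p = 5.46e-18). The next enzymes on the way to the sugar donor, Gnpnat1 (log2 -1.10 ± 0.08), Pgm3 (log2 -0.70 ± 0.08) and Uap1 (log2 -0.72 ± 0.05), fell as well, while the Uap1 relative Uap1l1 rose (log2 1.61 ± 0.07). Renbp (log2 2.45 ± 0.07) and Amdhd2 (log2 1.17 ± 0.11), which act in the turnover of amino sugars, rose. Gnpda2 did not pass the test, at 12.2 ± 0.227 CPM in TMG_E2 and 11.3 ± 0.300 CPM in Ctrl. Of the 12 tested genes 6 rose and 5 fell, shares near those over all genes.

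Of 13 tested genes of erythropoietin signalling, 7 rose and 6 fell, near the shares of all genes (42.3% higher and 42.1% lower). Fam132b, which encodes erythroferrone, a hormone of red cell precursors, had 45.8, 43.6 and 46.5 CPM in the TMG_E2 libraries, against 1.23, 1.89 and 2.04 CPM in the Ctrl libraries (log2 4.71 ± 0.11, adjusted p = 7.59e-17). It passed the filter only through TMG_E2 libraries, so that it had to differ. Pim1, a kinase gene that STAT5 activates, had 317 ± 12.2 CPM in TMG_E2 and 55.3 ± 7.30 CPM in Ctrl (log2 2.52 ± 0.06), and Gab1, an adaptor, rose (log2 1.44 ± 0.04). Stat5a itself had 55.1 ± 3.87 CPM in TMG_E2 and 212 ± 5.92 CPM in Ctrl, and fell (log2 -1.95 ± 0.05), as did the phosphatase gene Ptpn6 (log2 -1.48 ± 0.07). Of the NuRD chromatin remodeller, 9 of 13 tested subunits fell and 1 rose (median log2 -0.44). Chd4, its ATPase, had 442 ± 2.35 CPM in TMG_E2 and 796 ± 3.82 CPM in Ctrl (log2 -0.85 ± 0.04).

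**Figure D4:**
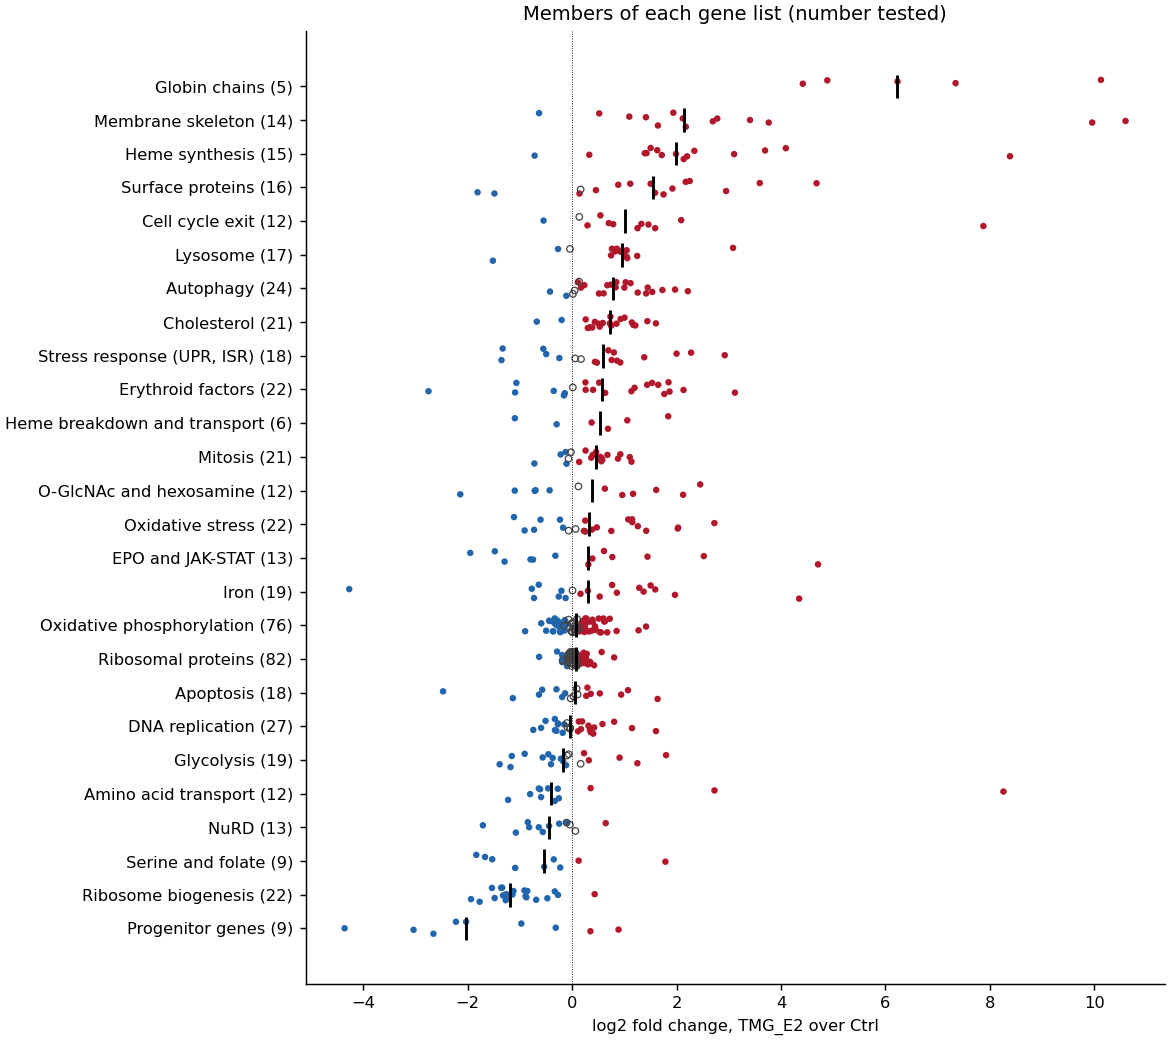
Log2 fold change of TMG_E2 over Ctrl (horizontal axis) for each tested member of 26 gene lists (vertical axis, with the number tested), sorted by the list median, drawn as a black line. Red and blue points are called higher and lower, and open circles did not pass the test; globin genes have the highest median, 6.23, and progenitor genes the lowest, -2.03.

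Genes that restrain the cell cycle mostly rose. Of 12 tested members of the list, 10 rose and 1 fell (median log2 1.02), against 42.3% higher and 42.1% lower of all genes. Btg2 (chromosome 1, 134074865 to 134079155), an antiproliferative gene, had 108, 113 and 109.9 CPM in the TMG_E2 libraries, against 0.519, 0.566 and 0.311 CPM in the Ctrl libraries (log2 7.88 ± 0.10, adjusted p = 3.61e-20). It passed the filter only through TMG_E2 libraries, so that it had to differ. The kinase inhibitor genes Cdkn1b (log2 1.59 ± 0.09) and Cdkn1a (log2 1.46 ± 0.05) rose, and Tob1 fell (log2 -0.55 ± 0.09). Tob1 passed the filter only through Ctrl libraries. Among G1 cyclins and kinases, Ccnd3, the cyclin D3 gene, had 1015, 1068 and 1039 CPM in the TMG_E2 libraries, against 213, 191 and 193 CPM in the Ctrl libraries, and rose (log2 2.39 ± 0.04, adjusted p = 2.54e-18), while Ccnd2 (log2 -0.98 ± 0.04), Cdk6 (log2 -1.27 ± 0.06) and Cdk4 (log2 -0.77 ± 0.05) fell. Of 21 tested mitosis genes 15 rose and 4 fell (median log2 0.46), with Ccnb2 at log2 1.14 ± 0.05, Ccna2 at log2 1.10 ± 0.04 and Bub1b at log2 -0.72 ± 0.04. Of 27 tested DNA replication genes 13 rose and 10 fell, near the shares of all genes. Among them Cdc6, which loads the replicative helicase, rose the most (log2 1.6 ± 0.04), while Tk1, thymidine kinase, fell (log2 -0.74 ± 0.04). Scaled by library size alone, 9 replication genes rose and 14 fell, so that no direction is given for that list.

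Ribosome biogenesis genes fell as a group. Of 22 tested genes 21 fell and 1 rose, with a median log2 fold change of -1.18, and 13 fell by 2-fold or more. Over all genes tested 42.1% were lower and 42.3% higher, and 9.93% fell by 2-fold or more. Polr1b, a subunit of RNA polymerase I, which transcribes ribosomal RNA, had 43.1, 39.7 and 42.9 CPM in the TMG_E2 libraries, against 158, 158 and 166 CPM in the Ctrl libraries (log2 -1.94 ± 0.06, adjusted p = 7.29e-16). Nop2, an rRNA methyltransferase, had 73.4 ± 1.88 CPM in TMG_E2 and 250.5 ± 6.38 CPM in Ctrl (log2 -1.77 ± 0.05). Wdr12 (log2 -1.34 ± 0.04) and Dkc1 (log2 -1.25 ± 0.04) fell, and Rrn3, an initiation factor of RNA polymerase I, rose (log2 0.43 ± 0.04). The list held 0.323% ± 0.0125 of TPM in TMG_E2 and 0.845% ± 0.0148 in Ctrl. Genes of ribosomal proteins themselves moved little: of 82 tested, 37 rose, 10 fell and 35 did not pass the test, between -0.63 (Rpl7l1) and 0.80 (Rpsa) on the log2 scale. Scaled by library size alone, 20 rose and 27 fell. Of 20 aminoacyl-tRNA synthetase genes 5 rose and 10 fell, with Aars at log2 1.07 ± 0.04 and Farsa at log2 -0.58 ± 0.04.

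Metabolic genes were mixed. Of 9 tested genes of serine and folate metabolism 7 fell and 2 rose (median log2 -0.54). Over all genes tested 42.1% were lower and 42.3% higher. Mthfd1, a folate enzyme, stood at 235 ± 12.4 CPM in TMG_E2 and 837 ± 20.3 CPM in Ctrl, and Shmt1 fell (log2 -1.67 ± 0.06). Among 19 tested genes of glycolysis 11 fell and 5 rose. Pklr, the pyruvate kinase gene of red cells and liver, had 425 ± 17.4 CPM in TMG_E2 and 122 ± 6.53 CPM in Ctrl (log2 1.80 ± 0.04), and Hk1, hexokinase, rose (log2 1.25 ± 0.04), while Slc16a1, a lactate transporter (log2 -1.39 ± 0.05), and Pgam1 (log2 -1.18 ± 0.05) fell. Of 76 tested subunits of oxidative phosphorylation 35 rose and 26 fell, but scaled by library size alone 23 rose and 30 fell, so that no direction is given for them. Of 12 tested amino acid transporter genes 9 fell and 3 rose. Slc38a5 had 15.5, 14.4 and 18.4 CPM in the TMG_E2 libraries, against 0.0472, 0.0472 and 0.0445 CPM in the Ctrl libraries (log2 8.26 ± 0.25), and Slc6a9, a glycine transporter, had 165 ± 12.9 CPM in TMG_E2 and 24.9 ± 1.10 CPM in Ctrl (log2 2.73 ± 0.06). Slc38a5 passed the filter only through TMG_E2 libraries. Slc1a5, a glutamine transporter, fell (log2 -1.23 ± 0.06).

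Autophagy and lysosome genes rose together. Of 24 tested autophagy genes 19 rose and 2 fell (median log2 0.79), against 42.3% higher and 42.1% lower of all genes. Atg4d (log2 2.22 ± 0.07), Gabarap (log2 1.97 ± 0.05), Nbr1 (log2 1.53 ± 0.05) and Map1lc3b (log2 1.45 ± 0.05) were called with the smallest p, and Fundc1 was lower (log2 -0.42 ± 0.08). Of 17 tested lysosome genes 14 rose and 2 fell (median log2 0.95). Among the autophagy genes 1 passed the filter only through TMG_E2 libraries. Among the lysosome genes 1 passed only through TMG_E2 libraries and 1 only through Ctrl libraries. Ctsb, the protease cathepsin B, had 598, 616 and 635 CPM in the TMG_E2 libraries, against 74.5, 71.8 and 72.2 CPM in the Ctrl libraries (log2 3.08 ± 0.04, adjusted p = 3.59e-20). Of the factors that drive lysosome genes, Tfe3 rose (log2 1.04 ± 0.04) and Tfeb fell (log2 -1.52 ± 0.10). Of 17 tested genes of terminal maturation 13 rose and 3 fell (median log2 0.91). Ube2l6 (log2 3.91 ± 0.06), Trim10 (log2 3.28 ± 0.06), Fam46c (log2 2.78 ± 0.07) and Ube2h, a ubiquitin-conjugating enzyme (log2 2.21 ± 0.05), rose, and the histone methyltransferase gene Setd8 fell (log2 -0.78 ± 0.03).

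Of 21 tested cholesterol synthesis genes 19 rose and 2 fell (median log2 0.72), against 42.3% higher and 42.1% lower of all genes. Idi1, which makes the isoprenoid unit dimethylallyl diphosphate, had 1485, 1272 and 1435 CPM in the TMG_E2 libraries, against 455, 447 and 477 CPM in the Ctrl libraries (log2 1.6 ± 0.05, adjusted p = 4.14e-15). Mvk (log2 1.44 ± 0.06), Msmo1 (log2 1.21 ± 0.05) and Hsd17b7 (log2 1.14 ± 0.05) rose, and Dhcr7, the last enzyme of one branch, fell (log2 -0.68 ± 0.06). Of 22 tested genes of oxidative stress defence 14 rose and 6 fell (median log2 0.32). Srxn1, sulfiredoxin, had 133 ± 1.45 CPM in TMG_E2 and 20.1 ± 0.602 CPM in Ctrl (log2 2.72 ± 0.04), and Prdx2, the abundant peroxiredoxin of red cells, had 1381 ± 90.6 CPM in TMG_E2 and 340.0 ± 6.61 CPM in Ctrl (log2 2.02 ± 0.05). Nqo1 (log2 2.03 ± 0.05) and Cat, catalase (log2 1.42 ± 0.03), rose, while Prdx4 (log2 -1.11 ± 0.06) and Sod2 (log2 -0.91 ± 0.04) fell. Of 18 tested stress response genes 11 rose and 5 fell. Ppp1r15a, which lets translation resume after stress, had 217 ± 18.3 CPM in TMG_E2 and 28.7 ± 1.16 CPM in Ctrl (log2 2.92 ± 0.08), and Eif2ak1, the heme-regulated kinase HRI, had 405 ± 2.16 CPM in TMG_E2 and 101 ± 1.73 CPM in Ctrl (log2 2.0 ± 0.04). The endoplasmic reticulum chaperone genes Calr (log2 -1.33 ± 0.05) and Pdia4 (log2 -1.35 ± 0.05) fell.

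Of 18 tested apoptosis genes 7 rose and 7 fell, near the shares of all genes (42.3% higher and 42.1% lower). Bcl2l1, which encodes the survival protein BCL-XL, had 77.7 ± 4.79 CPM in TMG_E2 and 25 ± 1.25 CPM in Ctrl (log2 1.64 ± 0.06). Bid fell (log2 -1.14 ± 0.04) and Apaf1 rose (log2 0.94 ± 0.06). Of 9 tested genes of MHC class I and the interferon response 6 rose and 3 fell, with B2m, the light chain of MHC class I, at log2 1.59 ± 0.05. Esr1, which encodes the estrogen receptor, had 35.9, 38.6 and 35.4 CPM in the TMG_E2 libraries, against 7.51, 7.26 and 6.80 CPM in the Ctrl libraries (log2 2.35 ± 0.07), and here too reads of the transgene may be counted. Esr1 passed the filter only through TMG_E2 libraries.

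To see what each compound added, TMG_E2 was set beside the single treatments; these comparisons share libraries, so their values are given side by side only. TMG_E2 differed from TMG in 6777 genes (82.7%), of which 3383 (41.3%) were higher and 3394 (41.4%) lower. From E2 it differed in 1066 genes (13%), of which 464 (5.66%) were higher and 602 (7.35%) lower (353 and 781 when scaled by library size alone), with a median fold of 1.18 among them, and Aox4 alone differed by 2-fold or more. The number called was 1456 with the replicate number as a block. Same-numbered TMG_E2 and E2 libraries deviated together, and whether this bears on the number was not tested. The number called was 665 without E2_Rep3, 688 without E2_Rep2 and 520 when only these groups were fitted. E2 alone differed from Ctrl in 6791 genes (82.9%), with 3438 (42%) higher and 3353 (40.9%) lower. TMG alone differed from Ctrl in 423 genes (5.16%), with 243 (2.97%) higher and 180 (2.2%) lower, and in 193 (without Ctrl_Rep3) to 252 (without TMG_Rep3) with 1 library left out. Scaled by library size alone, lower calls outnumbered higher ones in each of these comparisons: 2876 higher and 3964 lower for TMG_E2 over TMG, 2852 and 3923 for E2 over Ctrl, and 176 and 234 for TMG over Ctrl. For TMG_E2 over Ctrl they were 2864 higher and 4095 lower.

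Aox4, an aldehyde oxidase gene, had 15.8, 17.2 and 19.0 CPM in the TMG_E2 libraries, 36.4, 42.9 and 39.5 CPM in the E2 libraries, 14, 14.5 and 16.4 CPM in the TMG libraries and 30.7, 35.2 and 32.6 CPM in the Ctrl libraries. Both groups with TMG lay below both groups without it, and TMG_E2 differed from E2 (log2 -1.20 ± 0.08, adjusted p = 3.85e-07). Fndc5, which encodes a membrane protein with a fibronectin domain, was the gene with the largest rise over E2, with 28.0, 22.4 and 25.1 CPM in TMG_E2, 13.6, 12.1 and 12.2 CPM in E2, 7.26, 5.25 and 6.09 CPM in TMG and 2.45, 1.74 and 2.71 CPM in Ctrl libraries (log2 1.00 ± 0.11, adjusted p = 2.38e-05). Mgea5 averaged 436 ± 7.03 CPM in TMG_E2, 329 ± 10.4 CPM in E2, 288 ± 7.28 CPM in TMG and 224 ± 5.08 CPM in Ctrl, and TMG_E2 was higher than E2 (log2 0.41 ± 0.04, adjusted p = 6.56e-06). Of the cholesterol genes 12 of 21, of the oxidative stress genes 8 of 22 and of the lysosome genes 6 of 17 were higher in TMG_E2 than in E2, against 5.66% of all genes, and none of these lists had a lower one. Of 22 ribosome biogenesis genes 10 were lower in TMG_E2 than in E2, against 7.35% of all genes. These lists were picked out of 39 with the results known, and their counts under other settings are not given here. Slc4a1 (log2 -0.29 ± 0.05, adjusted p = 0.00125), Slc25a37 (log2 -0.19 ± 0.04, adjusted p = 0.00254) and Dmtn (log2 -0.29 ± 0.06, adjusted p = 0.00307) were lower in TMG_E2 than in E2.

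Whether the joint effect departed from the sum of the single effects was tested as an interaction, which is the log2 fold change of TMG_E2 over Ctrl minus those of E2 and of TMG over Ctrl. It was called in 78 genes (0.952%), positive in 22 (0.268%) and negative in 56 (0.683%). With the replicate number as a block it was called in 173 genes, and leaving out 1 library gave 17 (without Ctrl_Rep3) to 139 (without TMG_E2_Rep3). Alas2 had 718, 719.6 and 747 CPM in TMG_E2, 639, 673 and 662 CPM in E2, 4.22, 5.00 and 3.91 CPM in TMG and 1.70, 2.26 and 2.53 CPM in Ctrl libraries. Its interaction was negative (log2 -0.87 ± 0.15, adjusted p = 0.00891): TMG alone raised it (log2 1.01 ± 0.14, adjusted p = 0.000425), and TMG on top of E2 added less (log2 0.15 ± 0.04), a difference between TMG_E2 and E2 that was not called without any 1 of the E2 libraries (edgeR adjusted p = 0.0566 to 0.126). Hba-a2 averaged 17030.0 ± 2457 CPM in TMG_E2, 15885 ± 482 CPM in E2, 399 ± 21.5 CPM in TMG and 227 ± 12.2 CPM in Ctrl (log2 -0.72 ± 0.11, adjusted p = 0.0046). Hbb-bs averaged 21229 ± 630.5 CPM in TMG_E2, 19975 ± 1220.0 CPM in E2, 31.0 ± 4.07 CPM in TMG and 19.0 ± 1.91 CPM in Ctrl (log2 -0.62 ± 0.12, adjusted p = 0.0207), and this call was lost without any 1 of TMG_Rep1, TMG_Rep2, E2_Rep2, Ctrl_Rep2 and Ctrl_Rep3 (edgeR adjusted p up to 0.082). Aim1 fell less with both compounds than with E2 alone, with 17.7, 16.6 and 17.2 CPM in TMG_E2, 11.3, 9.56 and 11.6 CPM in E2, 39.1, 35.6 and 36.8 CPM in TMG and 37.5, 36.0 and 38.2 CPM in Ctrl libraries (log2 0.67 ± 0.10, adjusted p = 0.00286).

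**Figure D5:**
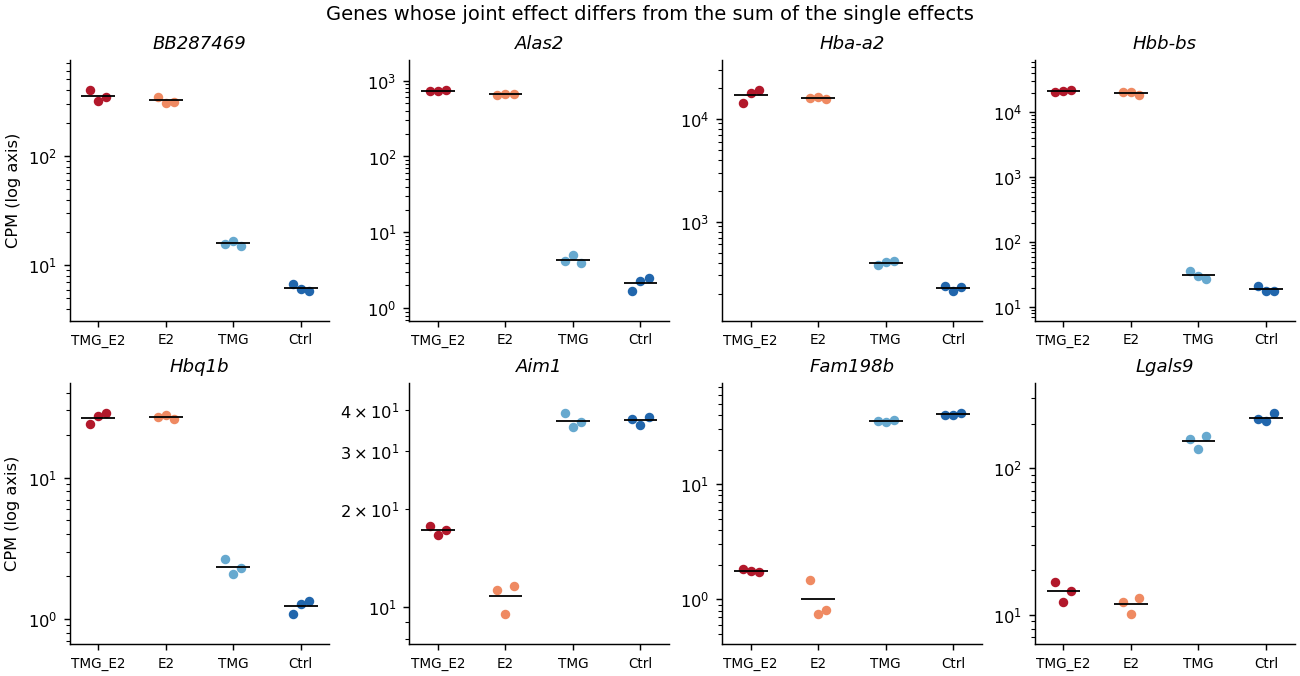
CPM (log axis) of 8 genes in each library of TMG_E2, E2, TMG and Ctrl, with the group mean as a line; each has a called interaction, which held under all 20 alternatives for BB287469, Alas2, Hba-a2 and Aim1, 19 for Lgals9, 15 for Hbb-bs, 13 for Hbq1b and 9 for Fam198b. In BB287469, Alas2, Hba-a2, Hbb-bs and Hbq1b the step between TMG and Ctrl is wider than that between TMG_E2 and E2, and in Aim1 and Fam198b TMG_E2 lies above E2 while the TMG mean does not lie above the Ctrl mean.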

How the data were processed

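RNA was sequenced on poly(A) libraries made with a stranded kit, per the labels' protocols; how strand was set when reads were counted is not stated there. The deposited files hold RSEM expected counts and TPM per gene, made by the authors with RSEM 1.2.22 on GRCm38, with Bowtie2, edgeR 3.14.0, FastQC 0.11.2 and R 3.2.2 also named in the submitters' processing notes. Samples were grouped by title. Expected counts were rounded, the row without a gene name was dropped, and genes over 10 CPM in at least 2 of the 6 TMG_E2 and Ctrl libraries were kept. One edgeR 4.0.16 quasi-likelihood fit (R 4.3.3) with TMM scaling held all 12 libraries, so that the groups share an estimate of the spread; p-values were adjusted by Benjamini-Hochberg over 8195 genes and called under 0.05. CPM values are TMM scaled, errors of log2 fold changes are standard errors and those of levels SD (n = 3). TPM served for levels between genes and for shares, and the number of counts limits the precision of low genes. The tests were tested on simulated data.

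The comparison and the gene lists were chosen with earlier results of these data known. Named genes were the 12 highest and 12 lowest fold changes without overlap, all tested genes of the globin, heme, erythroid factor, progenitor, O-GlcNAc and carbonic anhydrase lists, up to 6 called genes of each other list, and the extremes of the other contrasts. Same-numbered libraries deviated together for TMG_E2 and E2 (correlations 0.444, 0.185 and 0.357) and for TMG_E2 and TMG (0.411, 0.236 and 0.432), from the titles' numbers, but not for TMG_E2 and Ctrl (-0.0207, -0.121 and 0.0908). Alternatives were other scalings (RLE, library size alone), filters, DESeq2 1.42.0, limma 3.58.1 voom with a weight per group (added after seeing the data), a replicate block, and leaving out each library. Some genes that the rule names are not reported here.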

Additional observations from a re-analysis of the deposited data

Results flagged for a closer look

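By edgeR's test of the interaction over all genes tested, 78 (0.952%) were called. The named genes include the extremes of these calls, picked because they were called, so their share cannot be set against 0.952%. The effect of TMG in the presence of E2 differed from its effect without E2 in 21 of the 245 named genes (log2 scale). It was negative in 14: BB287469 (-1.21), Gm2016 (-1.20), Gm8300 (-1.03), Asic4 (-1.02), Gm5662 (-1.01), Hbq1b (-0.95), Alas2 (-0.87), Akr1e1 (-0.72), Hba-a2 (-0.72), Mvb12a (-0.62), Hbb-bs (-0.62), Kel (-0.50), Sptb (-0.32) and Abcb10 (-0.28). It was positive in 7, among them Mylk3 (0.62), Ephx2 (0.67), Aim1 (0.67), Lgals9 (0.83), Fermt3 (0.96) and Fam198b (1.05). BB287469, Gm2016, Gm5662 and Gm8300 lie on chromosome 12 and are near-identical, so their reads are uncertain. Alas2, Hba-a2, Kel, Aim1, Asic4 and BB287469 were still called under all 20 alternatives. Lgals9 was called under 19, Hbb-bs under 15, Fermt3 and Sptb under 14, and Hbq1b and Mvb12a under 13. Gm2016 and Mylk3 were called under 12, Gm5662 under 11, Ephx2 under 10, Fam198b under 9, Abcb10 and Gm8300 under 8 and Akr1e1 under 6, and none of these changed sign.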

How the results depend on the processing

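The number of genes called between TMG_E2 and Ctrl lay between 6663 and 7006 under all alternatives but those with fewer genes filtered out, with 8871 (no filter) and 8593 (filterByExpr). Genes past 2-fold numbered 1349 higher and 1589 lower with no filter, and 1194 higher and 1372 lower with filterByExpr. Scaling by library size alone shifted the median of all genes to -0.12 and gave 2864 higher and 4095 lower. With the replicate block 7006 genes were called. Same-numbered TMG_E2 and Ctrl libraries did not deviate together (correlations -0.0207, -0.121 and 0.0908), which does not settle whether they are pairs. Genes called between TMG_E2 and E2 numbered 520 with only these groups fitted, 625 with voom, 1456 with the replicate block, and 665 to 1168 with 1 library left out. Those between TMG and Ctrl numbered 773 with only these groups fitted, 809 with voom, 687 with the replicate block, and 193 to 252 with 1 library left out. Interaction calls numbered 178 with no filter, 48 with filterByExpr, 173 with the replicate block, and 17 to 139 with 1 library left out. The cause of these differences was not tested. Globin genes held 3.65% of expected counts in TMG_E2. Among named genes, 3 that did not pass the test changed sign under some settings: AK131586 (-0.10 by library size; -0.0062 without Ctrl_Rep1, -0.013 without Ctrl_Rep3 and -0.031 without TMG_E2_Rep3; highest 0.086 with 1 library left out), Fermt3 (-0.071 by library size and -0.010 without Ctrl_Rep2; highest 0.14) and Ikzf1 (-0.11 by library size, edgeR adjusted p = 0.0135, and -0.014 without TMG_E2_Rep1; highest 0.031). The other results for named genes in TMG_E2 against Ctrl kept direction and call in 3648 cases, with 5 losing the call (Mthfd2 and Tm7sf2) and 6 gaining it (AK131579, BC069931, Eef1a1 and Tmem229b).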
